A study of Mus musculus with 25 samples.

Results

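The chemokine ligands Ccl2, Ccl7, Ccl8, Ccl12, Cxcl10 and Cxcl12 and the receptors Ccr1, Ccr2 and Cxcr4 were followed in lumbar dorsal root ganglia (DRG), the clusters of sensory neuron cell bodies that serve the hind limb. These 9 genes were taken by symbol from the 30142 genes named on the array, and each had 1 probe set. None of the 8 that could be tested passed the test in any comparison with surgery. Of all genes tested, at most 0.331% passed between treatments and at most 2.87% between times in operated mice. Ccl2 and Ccl12 were lower in naive mice at the time matched to 16 weeks than at that matched to 4 weeks. These were 2 of the 8 called in that comparison, in which 18.8% of all genes tested were called. Of the 9, Cxcr4 alone lay above the level of the array's negative control probe sets.

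All mice were male C57BL/6, and the DRG were those of levels L3 to L5. Naive mice had no operation. Sham mice had control surgery on the right knee, and DMM mice had the medial meniscus of that knee destabilized, which models osteoarthritis of the knee. Surgery was done at 10 weeks of age and ganglia were collected 4, 8 or 16 weeks afterwards, when mice were 14, 18 or 26 weeks old. Naive mice of matching age are named here by the corresponding time after surgery. There were 3 arrays in each of 8 groups and 1 array in the sham group at 8 weeks, 25 in all. The labels leave out the number of animals per array, whether tissue was pooled, or from which side the DRG came, so p-values measure the spread between samples, which may be technical.

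Chemokines are small secreted proteins that steer migrating leukocytes through receptors coupled to G proteins. Ccl2 is the best known ligand of Ccr2 and draws monocytes out of the blood into tissue. In the DRG, Ccl2 and Ccr2 have been studied as a route by which injured or stressed sensory neurons signal to macrophages and to each other in pain. Ccl7 and Ccl12 are also ligands of Ccr2, Ccl7 acts on Ccr1 as well, and Ccl8 acts on Ccr8 in mice. Cxcl10, a ligand of Cxcr3, is induced by interferon, and Cxcl12 acts through Cxcr4.

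The genes Ccl2, Ccl7, Ccl12 and Ccl8 lie in a cluster of chemokine genes on mouse chromosome 11, at positions 82035577 to 82037452, 82045712 to 82047525, 82101845 to 82103399 and 82115185 to 82116799 (RefSeq, GRCm38.p6). Ccl11 lies between Ccl7 and Ccl12. Ccr1 (positions 123962126 to 123968692) and Ccr2 (124101918 to 124109140) are on chromosome 9, Cxcl10 (92346638 to 92348889) on chromosome 5, Cxcl12 (117168535 to 117181368) on chromosome 6 and Cxcr4 (128588199 to 128592299) on chromosome 1. The 250 bases before the gene start given here were taken for 6 of the 9 genes. The window held for Ccr2 began 15 bases inside that gene and was not used, and none was held for Ccl2 and Ccl7. The windows are shown for Ccl12, the ligand whose level differed most between groups, for its neighbour Ccl8, and for Cxcl10, which differed most between arrays of a group among the ligands. All are RefSeq sequences of build GRCm38.p6 written 5′ to 3′ on the gene's own strand. Capitals mark the matches to TATAAA (searched on the gene's strand only), to GAAANNGAA (a core of interferon response elements), to GGGANTTCC (an NF-kB pattern) and to TGANTCA (an AP-1 pattern), the last 3 searched on both strands.
Ccl12 promoter, chr11:82101595-82101844, plus strand: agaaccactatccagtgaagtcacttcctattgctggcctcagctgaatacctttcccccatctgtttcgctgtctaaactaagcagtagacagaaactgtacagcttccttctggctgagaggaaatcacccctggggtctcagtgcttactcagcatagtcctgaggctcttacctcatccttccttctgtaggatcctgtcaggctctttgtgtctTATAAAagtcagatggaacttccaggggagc
Ccl8 promoter, chr11:82114935-82115184, plus strand: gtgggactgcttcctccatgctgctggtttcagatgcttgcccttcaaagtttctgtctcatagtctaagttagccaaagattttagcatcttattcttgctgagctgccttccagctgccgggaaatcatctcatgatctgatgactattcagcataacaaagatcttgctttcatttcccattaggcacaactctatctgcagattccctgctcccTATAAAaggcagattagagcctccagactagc
Cxcl10 promoter, chr5:92348890-92349139, minus strand: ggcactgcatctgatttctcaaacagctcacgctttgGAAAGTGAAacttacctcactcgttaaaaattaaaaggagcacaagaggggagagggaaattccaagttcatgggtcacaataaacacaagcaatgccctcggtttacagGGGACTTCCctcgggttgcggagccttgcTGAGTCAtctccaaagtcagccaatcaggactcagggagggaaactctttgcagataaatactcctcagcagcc

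Ccl12 and Ccl8 each held TATAAA, starting 31 and 32 bases before the start, and no other of these patterns. The Cxcl10 window held GAAAGTGAA 213 bases before the start, GGGACTTCC at 103 bases and TGAGTCA at 74 bases, and none of these matches overlapped another. Of the windows not shown, Cxcr4 held TATAAA and those of Cxcl12 and Ccr1 held none of the patterns. Of 32851 promoter windows of the same length, 7.59% held TATAAA, 7.13% held GAAANNGAA, 1.43% held GGGANTTCC and 6.75% held TGANTCA. A match describes the letters in the window and shows no binding in these samples.

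Values are deposited log2 intensities, and errors beside a mean are the SD between arrays. A gene was called at negative control level where its mean over the 25 arrays was at or below 8.40, the 95th percentile of the means of 5222 negative control probe sets, whose median was 5.14. By that measure 37.5% of the 20260 genes kept for tests lay above the negative controls. A gene was kept where its mean was above 4.52, so a kept gene can lie at negative control level.

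Among the ligands of the monocyte chemoattractant family, Ccl2 had a mean of 6.36, above 78.1% of the negative controls, and lay above the median of the negative controls of its own array on all 25 arrays. Ccl12 had a mean of 5.61, above 62.2% of the negative controls, and exceeded that median on 22 arrays. Ccl7 (mean 4.94, above 43.9% of the negative controls) exceeded it on 6 arrays, and Ccl8 (mean 4.66, above 35.2%) on none of the 25. For these ligands, and most of all for Ccl7 and Ccl8, the array therefore gave intensities that negative controls also reach.

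Among the other ligands, Cxcl10 had a mean of 4.83, above 40.2% of the negative controls, and exceeded the array's negative control median on 3 arrays. Cxcl12 had a mean of 6.68, above 82.7% of the negative controls, and exceeded that median on all 25 arrays. Of the receptors, Ccr2 had a mean of 5.67, above 63.7% of the negative controls, and also exceeded it on all 25. Ccr1 had a mean of 4.19, above 21.5% of the negative controls, and was not kept for tests. Cxcr4 had a mean of 8.55, above 95.7% of the negative controls, and exceeded the 95th percentile of the negative controls of its own array on 13 of 25 arrays. No array exceeded that percentile for any of the other 8 genes.

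Differences between arrays of the same group were larger for these genes than for most others. Their residual SD lay between 0.185 (Ccr1) and 0.273 (Cxcr4), above that of 79.8% to 94.0% of the genes kept.

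**Figure D1:**
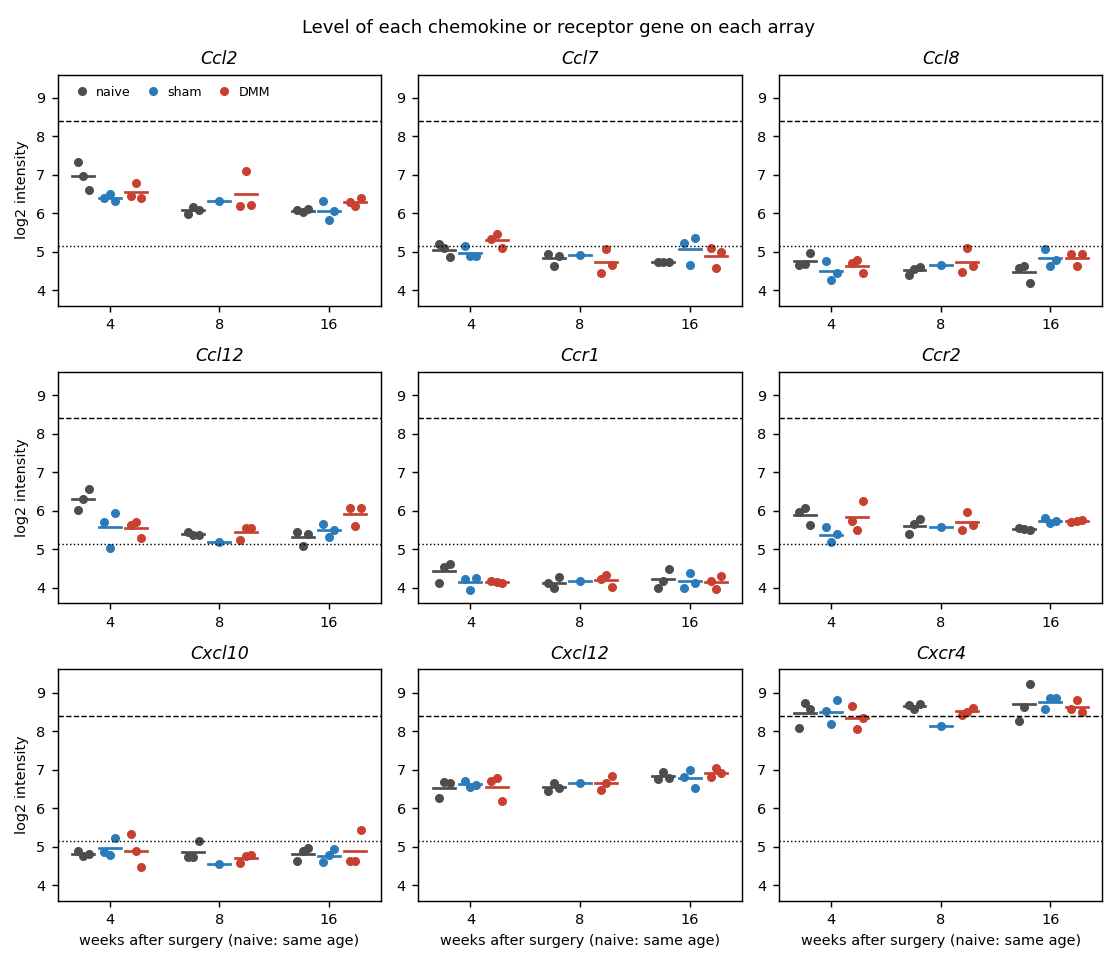
Log2 intensity (vertical axis) of each gene on each of 25 arrays against weeks after surgery (horizontal axis), with points for arrays, short bars for group means, and colours for naive, sham and DMM. The dotted and dashed lines are the median (5.14) and the 95th percentile (8.40) of the means of the negative control probe sets. The naive arrays at 4 weeks are the highest group by mean for Ccl2, Ccl12, Ccr1 and Ccr2, and only Cxcr4 has points above the dashed line.

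All 11 sensory neuron markers matched on the array lay above negative control level, with means from 11.70 to 18.56. Array medians over transcript probe sets lay between 4.88 and 4.97. Of the macrophage markers 2 of 15 lay above negative control level, of the monocyte markers 3 of 8, of the neutrophil markers 0 of 10 and of the T cell markers 0 of 6. In whole ganglia, fewer cells of a type and less RNA per cell cannot be told apart.

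Naive mice at 16 against 4 weeks ask how these genes differ between 26 and 14 weeks of age without surgery. Ccl2 on the naive arrays was 7.33, 6.98 and 6.61 at the first time, 5.99, 6.15 and 6.09 at the middle time (8 weeks), and 6.07, 6.02 and 6.10 at the last. All 3 naive arrays at 4 weeks lay above all 6 later ones. Ccl2 fell by 0.91 ± 0.20 (SE) on the log2 scale from 4 to 16 weeks (95% interval -1.32 to -0.50, limma adjusted p = 0.0041). Ccl12 was 6.03, 6.31 and 6.57 on the first naive arrays, 5.46, 5.38 and 5.36 at the middle time, and 5.45, 5.08 and 5.41 at the last. Again the 3 arrays at 4 weeks stood above the rest. Ccl12 fell by 0.99 ± 0.19 (95% interval -1.39 to -0.59, limma adjusted p = 0.00219). Its mean of 5.31 on the naive arrays at 16 weeks lay beside negative control medians of 5.12 to 5.31 on the same arrays. Both ligands were at negative control level, so these are differences in intensity and no fold in RNA is given.

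In that comparison 2 of the 8 tested genes were called, beside 18.8% of all genes tested. The groups did not overlap for 6 of the 8, with Ccl2, Ccl7, Ccl8, Ccl12 and Ccr2 lower and Cxcl12 higher at 16 weeks, beside 38.9% of all genes. For genes that did not pass, the difference was -0.36 ± 0.16 for the receptor Ccr2 (limma adjusted p = 0.119) and 0.31 ± 0.14 for Cxcl12 (adjusted p = 0.145). It was -0.31 for Ccl7 (adjusted p = 0.229), -0.30 for Ccl8 (adjusted p = 0.213), 0.24 for Cxcr4 (adjusted p = 0.445) and 0.0025 for Cxcl10 (adjusted p = 0.995). The median of the 8 differences was -0.31, beside -0.07 over all genes.

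The later naive arrays were set against each other after the data had been seen. From 8 to 16 weeks the naive difference was -0.01 for Ccl2 (95% interval -0.42 to 0.39) and -0.09 for Ccl12 (-0.49 to 0.31), and none of the 8 genes was called, beside 0.0197% of all genes. From 4 to 8 weeks Ccl2 fell by 0.89 ± 0.20 (limma adjusted p = 0.0146) and Ccl12 by 0.90 ± 0.19 (adjusted p = 0.0132), and these 2 of 8 were called beside 6.28% of all genes. The fall in both ligands thus lay between the first and second times, and rests on the 3 naive arrays at 4 weeks.

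Those 3 arrays also differed from the naive arrays at 16 weeks in other gene lists, where 12.7% of all genes tested were called lower. Over 10 genes known to rise in injured sensory neurons, the mean intensity was 9.65, 9.35 and 9.58 on the naive arrays at 4 weeks, and between 7.50 and 7.65 on those at 16 weeks. Of these genes 8 of 10 were called lower at 16 weeks, among them Atf3, an injury-induced transcription factor (fell by 2.44 ± 0.48, limma adjusted p = 0.00241), and Sprr1a, linked to axon regrowth (fell by 7.16 ± 1.54, adjusted p = 0.00413). Of 15 macrophage markers 9 were called lower, with the list mean from 7.03 to 7.42 at 4 weeks and 6.55 to 6.70 at 16 weeks; they included the complement gene C1qb (fell by 1.22 ± 0.24, adjusted p = 0.00211) and Csf1r, the receptor for macrophage growth factor (fell by 0.68 ± 0.11, adjusted p = 0.000434). Of 6 monocyte markers 3 were called lower, and of 21 interferon-stimulated genes 8 were. In other lists 0 of 8 neutrophil and 0 of 8 endothelial genes were called lower. Of 5 satellite glia and Schwann genes 1 was called lower and all 5 had lower means, and of 4 B cell genes 1 was called higher. Of 9 fibroblast and meningeal genes 0 were called, though all 9 had lower means. Of 11 sensory neuron markers 2 were called lower and 1 higher, and of 7 pericyte and smooth muscle genes 2 were called higher. Arrays of other groups reached the same means of the nerve injury and macrophage lists. The nerve injury mean was 9.51 on DMM replicate 2 at 4 weeks, 9.69 on DMM replicate 2 at 8 weeks and 9.43 on the sham array at 8 weeks, whose Ccl2 values were 6.78, 7.10 and 6.33. The macrophage mean of 6.99 to 7.15 on the DMM arrays at 4 weeks overlapped that of the naive arrays. The part of these lists in the change of Ccl2 and Ccl12 was not tested. The labels name no batch or array date, so age, collection and array handling cannot be told apart.

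**Figure D2:**
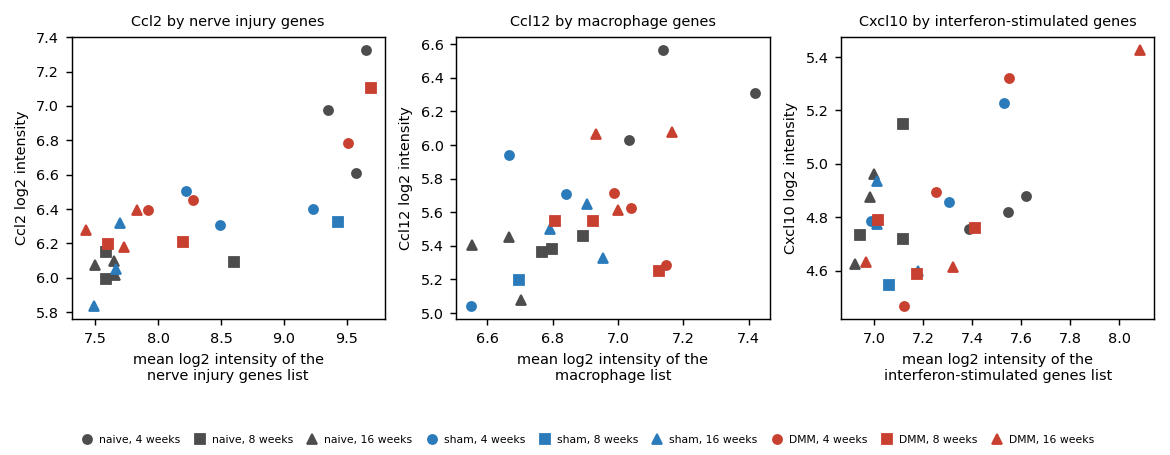
Log2 intensity of Ccl2, Ccl12 and Cxcl10 (vertical axes) against the mean log2 intensity of the nerve injury, macrophage and interferon-stimulated gene lists (horizontal axes), 1 point per array, with colours for treatment and shapes for time. The 5 highest Ccl2 points (3 naive arrays and 1 DMM array at 4 weeks, and DMM replicate 2 at 8 weeks) have nerve injury means of 9.35 or more. The sham array at 8 weeks has a nerve injury mean of 9.43 with Ccl2 at 6.33, and the DMM array at 16 weeks with the highest interferon mean (8.09) has the highest Cxcl10 (5.43).

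DMM against naive mice asks whether the chemokine genes differ in mice with a destabilized knee. Averaged over the 3 times, none of the 8 genes was called, beside 0.0444% of all genes. Ccl2 differed by 0.07 ± 0.11 (SE, 95% interval -0.16 to 0.31) and its receptor Ccr2 by 0.08 ± 0.09 (-0.11 to 0.27). The differences of all 8 lay between -0.11 (Cxcr4) and 0.15 (Ccl8), with limma adjusted p from 0.769 to 0.998. A p that misses the threshold does not show that the groups were equal, and the intervals give the differences these arrays leave possible.

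At 4 weeks, 0 of 8 genes was called in DMM against naive, beside 0.00987% of all genes, and 2 of the 8 had an unadjusted p under 0.05, beside 8.8% of all genes. Ccl12 was 5.62, 5.72 and 5.29 on the DMM arrays, all below the naive arrays. The difference was -0.76 ± 0.19 (limma adjusted p = 0.318), and Ccl12 was the single gene of the 8 whose groups did not overlap, beside 16% of all genes. Ccl2 was 6.46, 6.78 and 6.40 on the DMM arrays, with the highest of them above the lowest naive array, and differed by -0.43 ± 0.20 (adjusted p = 0.544), or by -0.25 without naive replicate 1. All 10 nerve injury genes had a lower mean in DMM than in naive mice here, with 0 called and a median difference of -0.74, and their part in the Ccl2 value was not tested. Ccr2 was 5.72, 5.50 and 6.25 on the DMM arrays and 5.95, 6.06 and 5.64 on the naive ones, and differed by -0.06 ± 0.16 (adjusted p = 0.947).

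At 8 weeks, 0 of 8 was called, beside 0.0494% of all genes, and 1 of the 8 (Ccl2) had an unadjusted p under 0.05, beside 8.49%. Ccl2 was 6.20, 7.10 and 6.21 on the DMM arrays, above every naive array at that time, and differed by 0.43 ± 0.20 (limma adjusted p = 0.561). It was the single gene of the 8 whose groups did not overlap, beside 10.2% of all genes. Without DMM replicate 2 the difference was 0.13. That array also had the highest nerve injury list mean among the DMM arrays at 8 weeks, 9.69 beside 7.60 and 8.20, and the part of that in the Ccl2 value was not tested.

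At 16 weeks, 0 of 8 was called, beside 0.0148% of all genes, and 2 of the 8 had an unadjusted p under 0.05, beside 8.81%. Ccl12 was 6.07, 5.61 and 6.08 on the DMM arrays, all above the naive ones, and differed by 0.61 ± 0.19 (95% interval 0.21 to 1.01, limma adjusted p = 0.462). Ccl2 was 6.28, 6.18 and 6.40, also above the 3 naive arrays, and differed by 0.22 ± 0.20 (adjusted p = 0.773). Ccr2 was 5.70, 5.73 and 5.76, above the naive 5.56, 5.52 and 5.50, and differed by 0.20 ± 0.16 (adjusted p = 0.729). These were the 3 of 8 genes whose groups did not overlap, beside 12% of all genes. Ccl8, with DMM and naive arrays overlapping, differed by 0.37 ± 0.17 (adjusted p = 0.548). Macrophage markers were 6.93 to 7.17 in list mean on the DMM arrays and 6.55 to 6.70 on the naive arrays at this time, with 0 of 15 called, and their part in these values was not tested.

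Cxcl10 on the DMM arrays at 16 weeks was 4.63, 4.62 and 5.43. Replicate 3 stood above the others and above all naive arrays (4.63, 4.87 and 4.96), and the group difference was 0.07 ± 0.21 (limma adjusted p = 0.944). Without replicate 3 it was -0.20. The negative control median of replicate 3 was 5.25. The mean of the interferon-stimulated genes in the 3 DMM arrays was 6.97, 7.32 and 8.09, highest on the same array. Where that mean was 7.62, on naive replicate 1 at 4 weeks, Cxcl10 was 4.88. On DMM replicate 1 at 4 weeks the mean was 7.55 and Cxcl10 was 5.32. The part of these genes in the Cxcl10 values was not tested.

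DMM against sham mice asks how DMM differs from opening the knee without destabilizing it. At 4 weeks 0 of 8 was called, beside 0% of all genes, where 949 genes had an unadjusted p under 0.05. Ccr2 was 5.57, 5.18 and 5.39 on the sham arrays, with 1 sham array above the lowest DMM array, and differed by 0.45 ± 0.16 (limma adjusted p = 0.986), or by 0.23 without DMM replicate 3. The macrophage list mean was 6.99 to 7.15 on these DMM arrays and 6.55 to 6.84 on the sham arrays. Its part in the Ccr2 value was not tested.

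At 8 weeks, with 1 sham array, 0 of 8 was called in DMM against sham, beside 0% of all genes, where 1708 had an unadjusted p under 0.05. The sham array had Ccl2 at 6.33 and Ccr2 at 5.58, each within the range of the 3 DMM arrays. For Ccl12, Cxcl10 and Cxcr4 every DMM array lay above the sham array, 3 of 8 genes beside 25.2% of all genes higher without overlap. Cxcr4 differed by 0.37. At 16 weeks 0 of 8 was called, beside 0.00494% of all genes. Ccl12 was 5.65, 5.33 and 5.50 on the sham arrays, overlapping the DMM arrays, and differed by 0.43 ± 0.19 (limma adjusted p = 0.758). Ccr2 differed by -0.0053 ± 0.16 (adjusted p = 0.999) and Ccl2 by 0.22 ± 0.20 (adjusted p = 0.936).

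**Figure D3:**
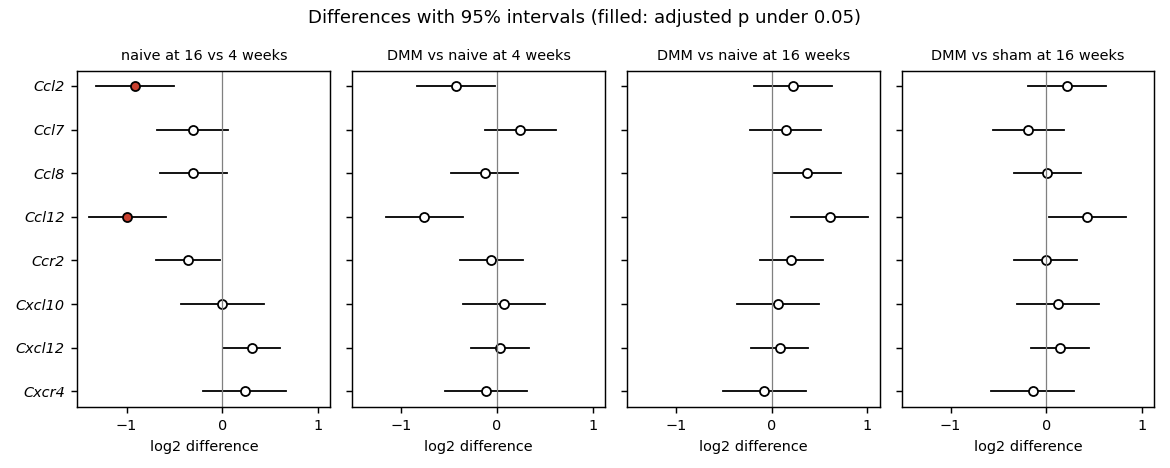
Log2 difference (horizontal axis, point) with its 95% interval (line) for the 8 tested genes (vertical axis) in 4 comparisons; a filled point has an adjusted p under 0.05. Only Ccl2 and Ccl12 in naive mice at 16 against 4 weeks are filled, and Ccl12 lies at -0.76 in DMM against naive at 4 weeks and at 0.61 at 16 weeks.

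Sham against naive mice asks what the operation without destabilization was accompanied by. At 4 weeks 0 of 8 was called, beside 0.331% of all genes. Ccl2 on the sham arrays was 6.40, 6.51 and 6.31, and Ccl12 was 5.71, 5.04 and 5.94. For Ccl2, Ccl12 and Ccr2 every sham array lay below every naive array, 3 of 8 genes beside 16.7% of all genes lower without overlap. The differences were -0.74 ± 0.19 for Ccl12 (limma adjusted p = 0.0785), -0.51 ± 0.16 for Ccr2 (adjusted p = 0.124) and -0.57 ± 0.20 for Ccl2 (adjusted p = 0.16). With array weights, 1 of the 8 was called, Ccl12 at -0.85 (adjusted p = 0.0236). Without sham replicate 2 the Ccl12 difference was -0.48 (adjusted p = 0.296). Of 15 macrophage markers 4 were called lower in sham mice here (Cd68, C1qc, Mrc1 and Csf1r), with list means of 6.55 to 6.84 on the sham and 7.03 to 7.42 on the naive arrays, and their part in the chemokine values was not tested. These comparisons use the same naive arrays at 4 weeks as DMM against naive at 4 weeks and as naive at 16 against 4 weeks, so their values are not independent of each other.

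At 8 weeks 0 of 8 was called in sham against naive, beside 0.00987% of all genes, and at 16 weeks 0 of 8, beside 0.00494%. The single sham array at 8 weeks lay above all naive arrays for 2 of 8 genes and below them for 3. These stand beside 25.8% and 27.4% of all genes. Among the lower was Cxcr4, at 8.14 on the sham array and 8.67, 8.58 and 8.69 on the naive ones, a difference of -0.51. At 16 weeks Ccl8 was 5.07, 4.64 and 4.77 on the sham arrays and 4.57, 4.63 and 4.19 on the naive ones, without overlap, and differed by 0.37 ± 0.17 (limma adjusted p = 0.439). Ccl8 and Ccr2 were the 2 of 8 genes without overlap, beside 17.6% of all genes. Ccl7, at 5.22, 4.65 and 5.36 on the sham arrays, differed by 0.33 ± 0.18 (adjusted p = 0.525). The Ccl7 difference was 0.55 without sham replicate 2 and 0.19 without sham replicate 3, and that of Ccl8 was 0.23 without naive replicate 3. Both ligands lay below the 95th percentile of the negative controls on every array.

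Within the operated groups, 0 of 8 was called between 16 and 4 weeks in sham mice, beside 1.76% of all genes, and 0 of 8 in DMM mice, beside 2.87%. Ccl2 differed by -0.34 ± 0.20 in sham mice (limma adjusted p = 0.374) and by -0.26 ± 0.20 in DMM mice (adjusted p = 0.502). Ccl12 differed by -0.07 ± 0.19 in sham mice (adjusted p = 0.892) and by 0.38 ± 0.19 in DMM mice (adjusted p = 0.303). For Ccr2 the difference was 0.36 ± 0.16 in sham mice (adjusted p = 0.227) and -0.09 ± 0.16 in DMM mice (adjusted p = 0.791). Ccr2 was the single gene of the 8 without overlap in sham mice, beside 25.9% of all genes. For Ccl7 the difference was 0.11 ± 0.18 in sham mice (adjusted p = 0.805) and -0.41 ± 0.18 in DMM mice (adjusted p = 0.223). Cxcl12 on the DMM arrays was 6.70, 6.78 and 6.19 at 4 weeks and 6.80, 7.03 and 6.92 at 16 weeks, without overlap, and differed by 0.36 ± 0.14 (adjusted p = 0.185), or by 0.18 without DMM replicate 3 at 4 weeks. It was the single gene of the 8 without overlap in DMM mice, beside 22.8% of all genes. Cxcr4, its receptor, differed by 0.27 ± 0.21 (adjusted p = 0.505).

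The change of the DMM difference from 4 to 16 weeks was tested as an interaction. Against naive mice 0 of 8 was called, beside 0.00494% of all genes. Ccl12 had the largest change of the 8, 1.37 ± 0.27 (95% interval 0.80 to 1.94), which ranked 6 of 20260 genes by p and had a limma adjusted p of 0.204. This value joins the difference of -0.76 at 4 weeks with that of 0.61 at 16 weeks. With the arrays at 8 weeks in place of those at 4 weeks, chosen after the data had been seen, it was 0.56 ± 0.27 (adjusted p = 0.601). Ccl2 changed by 0.65 ± 0.28 (adjusted p = 0.437). With the arrays at 8 weeks it changed by -0.20 ± 0.28 (95% interval -0.78 to 0.37). Against sham mice 0 of 8 was called, beside 0% of all genes, where 1193 had an unadjusted p under 0.05. There Ccl12 changed by 0.45 ± 0.27 (limma adjusted p = 0.892). The change was -0.51 ± 0.25 for Ccl7 (adjusted p = 0.838) and -0.45 ± 0.22 for Ccr2 (adjusted p = 0.838). Of the 8 genes, 5 changed upward and 3 downward, beside 44.1% of all genes upward, and the median change of the 8 was 0.05.

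Set in order over the 9 groups, Ccl2 was highest in naive mice at 4 weeks (6.97 ± 0.36, n = 3), and that group's gap to the next, DMM at 4 weeks (6.54 ± 0.21), was 0.43, above the residual SD of 0.26. No other neighbours in the order of Ccl2 were further apart than that SD. Ccl12 was highest in naive mice at 4 weeks (6.30 ± 0.27), then in DMM mice at 16 weeks (5.92 ± 0.27) and sham mice at 4 weeks (5.56 ± 0.47), with gaps of 0.38 and 0.36 beside a residual SD of 0.25. The other 6 groups followed from 5.54 down to 5.20 with no gap over that SD. For Ccr1 the naive group at 4 weeks (4.42 ± 0.27) was 0.20 above the next, beside an SD of 0.19. In Ccl7, Ccl8, Ccr2, Cxcl10, Cxcl12 and Cxcr4 no neighbouring groups were further apart than the residual SD.

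Across arrays, Cxcr4 had the most similar profiles in Hmgb2 (Pearson r = 0.710), Chchd10 (0.666) and Zfp385a (0.663), over 25 arrays that share the 9 groups. Between the genes themselves the highest correlations were 0.520 for Ccl8 with Ccl12, 0.505 for Ccl2 with Ccl12 and 0.502 for Ccl2 with Ccl7. Between Ccl2 and its receptor Ccr2 it was 0.420, and between Cxcl12 and its receptor Cxcr4 0.356. These correlations describe arrays that share groups and the naive arrays at 4 weeks.

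Of 50 other chemokine and chemokine receptor genes, 46 were on the array, 25 were kept and 2 lay above negative control level: Ackr1, an atypical receptor that binds many chemokines without G protein signalling (mean 14.31), and the eosinophil attractant Ccl11 (mean 10.13). In naive mice at 16 against 4 weeks 4 of the 25 were called lower and 0 higher, a share near the 12.7% of all genes called lower. They were Cx3cr1, the fractalkine receptor of macrophages and microglia (fell by 0.94 ± 0.15, limma adjusted p = 0.000496), Cxcl16 (fell by 0.50 ± 0.15, adjusted p = 0.0279), Ccl6 (fell by 0.46 ± 0.13, adjusted p = 0.0216) and Ccl9 (fell by 0.62 ± 0.20, adjusted p = 0.041). The list's median difference was -0.08, beside -0.07 over all genes. In every one of the other 14 comparisons 0 of the 25 was called by limma. In DMM against naive at 16 weeks Cx3cr1 differed by 0.51 ± 0.15 (adjusted p = 0.398) and Cxcl16 by 0.57 ± 0.15 (adjusted p = 0.353), and at 4 weeks Cx3cr1 differed by -0.49 ± 0.15 (adjusted p = 0.383).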

How the data were processed

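RNA of lumbar DRG was measured on 25 microarrays. The authors deposited log2 intensities, 1 per probe set. The log2 scale was read from the values. How values were normalized and summarized, and with which software, is not given in the sources used here. Biotin labelling is per the labels' protocols. Of 72685 probe sets, 30604 carried 1 gene symbol in the platform annotation. Where a gene had several, that of highest mean was used. Genes above the 40th percentile of transcript probe set means (4.52) were kept (20260). The written design named all probe sets, and the same 8 members pass either way.

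One mean per group was fitted over all arrays in limma 3.58.1 (R 4.3.3) with eBayes, two-sided, with Benjamini-Hochberg adjustment over all genes kept and a threshold of 0.05. The spread of the single sham array at 8 weeks was taken from the remaining groups. The number of arrays limits the precision: a 95% interval at the median SD reached 0.203 to each side for 3 arrays against 3. On simulated data for naive mice at 16 against 4 weeks over 20260 genes, 71 of 100 shifts of 0.5 and 96 of 100 shifts of 1 were recovered, with 14 unshifted genes called. For DMM against naive at 16 weeks 54 and 94 were recovered. These counts were not taken for the members alone. The members had residual SDs of 0.185 to 0.273, beside a median of 0.121 over the genes kept. Their intervals were therefore wider, as for Ccl12 in DMM against naive at 16 weeks (0.21 to 1.01).

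There were 15 comparisons. Alternatives were the filter, quantile and cyclic loess scaling, the spread, array weights, the groups in the fit, the replicate block, the probe set and each array left out. Named genes are the 9 members, list genes that passed or of highest mean, and the 3 genes most like a member above negative control level. Promoter patterns were set after matches had been seen. The members and lists were chosen with earlier results of these data known.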

Additional observations from a re-analysis of the deposited data

How the results depend on the processing

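Ccl2 and Ccl12 in naive mice at 16 against 4 weeks were called in all 15 alternatives that kept the naive arrays at 4 weeks or left 1 of them out. Ccl2 lay between -1.09 and -0.73 there, and Ccl12 between -1.13 and -0.86. With naive arrays at 8 weeks in place of 4, an alternative chosen after seeing the data, 0 of 8 genes was called. With array weights 1 of 8 was called in sham against naive at 4 weeks, where 0 was otherwise. In the change of DMM against naive, Ccl2 was -0.20 with arrays at 8 weeks in place of 4, reversed from 0.65; the cause was not tested. With each array left out in turn, 2 of 8 genes were called in naive mice at 16 against 4 weeks and 0 in each other comparison. Of 51 differences of at least 0.2 in size, 28 moved by over 1.5 times when some array was left out, with neither of the 2 called ones among them. The replicate block also gave 2 of 8 there and 0 elsewhere. Arrays of equal number correlated in their deviations between -0.359 and 0.318 over 21 pairs, over 0.1 in 8 pairs, and were not treated as paired. Under a filter at the median of the negative controls Ccl7, Ccl8 and Cxcl10 were not tested, and Ccr1 was tested with no filter alone. The sham array at 8 weeks could not be left out.

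Counts over all genes, behind each background share, moved more. Naive mice at 16 against 4 weeks had 3811 genes called, 4 with naive arrays at 8 weeks in place of 4, and otherwise between 2164 (without naive replicate 1 at 16 weeks) and 5301 (array weights). Sham at 16 against 4 weeks had 357 (0 to 916) and DMM 582 (4 to 1233). Sham against naive had 67 at 4 weeks (0 to 628), 2 at 8 weeks (0 to 123) and 1 at 16 weeks (0 to 76). DMM against naive had 2 at 4 weeks (0 to 20), 10 at 8 weeks (0 to 120), 3 at 16 weeks (0 to 325, the most without DMM replicate 3) and 9 averaged (7 to 26). DMM against sham had 0, 0 and 1 (at most 7, 3 and 11), and the changes had 1 (0 to 16) and 0 (0 to 1). Low signal limits all 9 members. Cxcr4, the only one above negative control level by its mean, exceeded the 95th percentile of its array's negative controls on 13 of 25 arrays.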
